A study of Mus musculus with 6 samples.

Results

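A group of 10 genes for inhibitory and activating receptors of myeloid cells was examined: the CD300 receptors Cd300a, Cd300ld, Cd300lf and Cd300lb, the immunoglobulin-like receptors Pirb and Lilrb4a, the Siglecs Siglec1, Cd33 and Siglece, and the CD47 receptor Sirpa. The genes were chosen by name, as receptors of these families, with earlier results of these data known. All 10 were among the 54532 genes of the count table. RNA-seq had been performed on the N9 microglial cell line, an immortalized mouse line, in 3 libraries of untreated control cells and 3 libraries of cells given LPS (lipopolysaccharide, the bacterial ligand of TLR4) at 1 µg/ml for 6 h. Both groups were grown in the same medium with serum and antibiotics, and no other treatment is named for either. Because N9 is 1 established line, the libraries describe that line alone, and nothing in the labels says that the 3 libraries of a group came from separate cultures, so the p-values measure the spread between these libraries, which may be technical.

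Receptors of this group set the threshold at which microglia and macrophages respond. The inhibitory members carry tyrosine motifs (ITIMs) in their cytoplasmic tail that recruit phosphatases, whereas the activating members have short tails and signal through the adaptors Tyrobp (DAP12) or Fcer1g. CD300 receptors bind lipids of dying cells, the paired Ig-like and LILR receptors bind MHC class I and other cell surface proteins, Siglecs bind sialic acid on glycans, and Sirpa binds CD47, a surface protein that restrains phagocytosis.

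LPS-stimulated N9 microglia carried 3.11-fold more Cd300lf mRNA than control cells, the only member of the 10 past the DEG threshold used in the study (adjusted p under 0.05 and an absolute log2FC over 1.5). Smaller increases passed the test for Siglec1, Cd300a and Lilrb4a. For Lilrb4a the groups overlapped, and DESeq2, an alternative test, did not call it (adjusted p = 0.23). Sirpa fell by 27.3%. In bulk RNA, fewer cells that express a gene and less RNA per cell cannot be told apart. Cd300lb, Cd300ld, Pirb and Cd33 did not pass the test, and Siglece was too low to be tested. Of the 9 tested members, 4 were up-regulated at an adjusted p under 0.05, against 18.7% of the 12296 genes tested, and 1 was down-regulated, against 15.7% of all genes tested. DEG made up 2.65% of all genes tested and 1 of the 9 members. The libraries of the 2 groups did not overlap for 4 of the 9 members, against 45.3% of all genes tested. Because the members were chosen with earlier results known, these counts describe the group and are no test of it. The median log2FC of the tested members was 0.03, with a range from -0.46 to 1.64, beside a median of 0.0036 over all tested genes. Values below are CPM, the read count relative to the TMM-scaled library size, unless a level per kilobase of exon is named, and adjusted p-values are from edgeR's quasi-likelihood test with Benjamini-Hochberg adjustment over all tested genes.

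**Figure D1:**
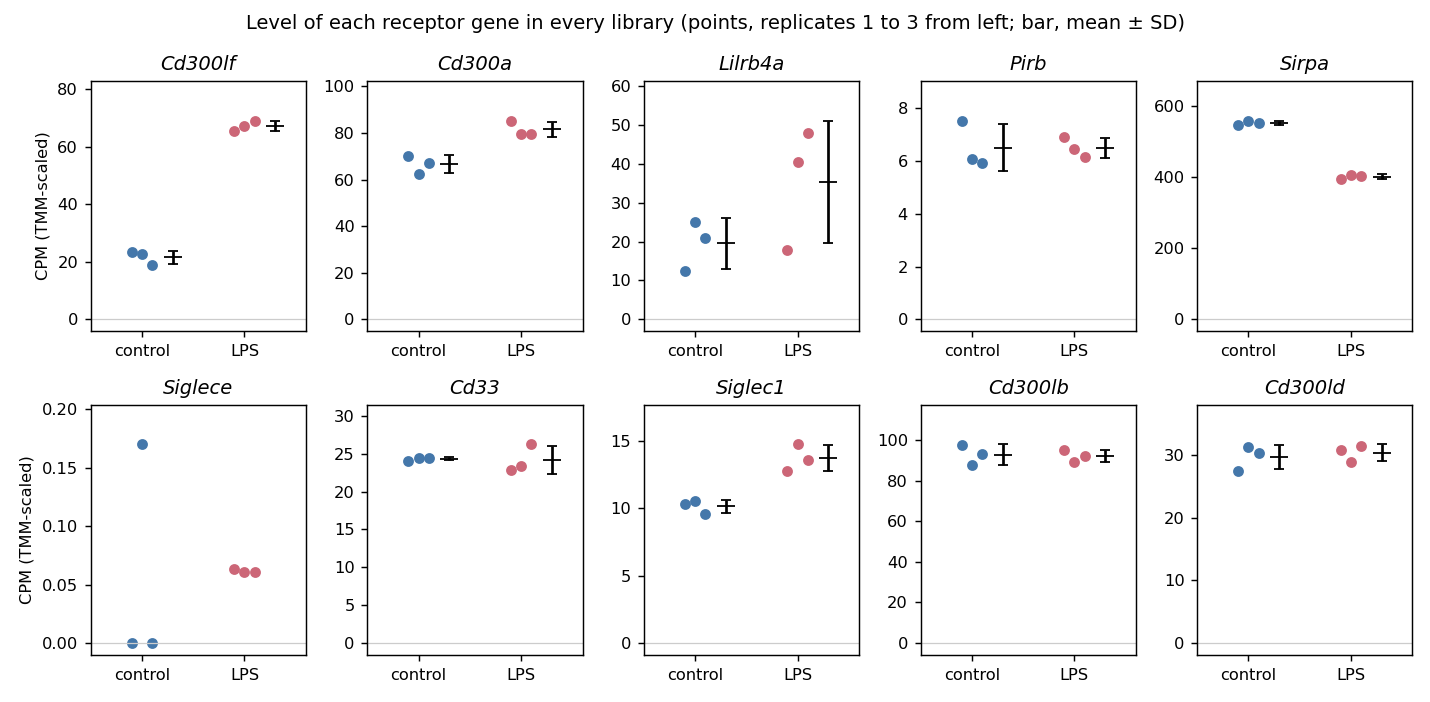
CPM (y axes, linear and from 0) of the 10 receptor genes in the 3 control and 3 LPS libraries, points in the order of the replicate numbers, with the mean ± SD beside them (no mean for Siglece, whose libraries hold 0 to 3 counts). Cd300lf and Sirpa show wide gaps between the groups, Lilrb4a is lowest in replicate 1 of both groups, and the groups overlap for Cd300lb, Cd300ld, Pirb and Cd33.

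The total count per library lay between 16363767 and 17956772, at which 3 counts correspond to 0.161 to 0.190 CPM. The response to LPS was present in every stimulated library: Cxcl10 rose from 1.58 ± 0.288 to 208 ± 18.6 CPM and Tnf from 15.8 ± 1.51 to 232 ± 4.35 CPM (mean ± SD, n = 3), and Nos2 went from 0 to 2 counts per control library to 285 to 385 counts per LPS library. Il1b was at 0 to 5 counts in the control libraries and at 122 to 172 in the LPS libraries. Of 13 microglia and macrophage markers, Csf1r stood at 431 ± 14.6 CPM and Cd68 at 623 ± 22.0 CPM in control cells, whereas P2ry12 had 3 to 6 counts in any library, Aif1 4 to 9, and Sall1 0 or 1, so these 3 markers of brain microglia were near 0. The summed level of the 13 markers was 1998 to 2075 CPM in control and 2187 to 2266 CPM in LPS libraries, and relative to raw totals these ranges overlapped (2065 to 2146 and 2122 to 2186). Of the 10 tested, 3 were up-regulated and 3 down-regulated (of all genes tested, 18.7% and 15.7%), with Spi1 (log2FC 0.58) and Ptprc (0.24) among the higher and Trem2 (-0.52) and Adgre1 (-0.23) among the lower. Of 20 hepatocyte markers, 19 were in the table and 0 were tested, but their summed counts were 9, 343 and 540 in control libraries 1, 2 and 3 and 5, 6 and 15 in the LPS libraries. Alb alone had 2, 155 and 292 counts in control libraries 1 to 3 and at most 2 in an LPS library. With control libraries 2 and 3 left out, the 1 control library that remained was assumed to vary like the LPS libraries. In that smaller fit Siglec1 lost its call while its log2FC stayed near that of all libraries (0.41 against 0.44, SE 0.16 against 0.11, adjusted p = 0.089), Cd300a was near the threshold (0.22, adjusted p = 0.048), and Lilrb4a rose to a log2FC of 1.51. The part of this hepatocyte signal in the results was not tested. Of 26 markers of other cell types, 6 passed the filter, with Xcr1 (log2FC 2.57) and S100a8 (1.41) higher and Mbp (-0.34) and Aldh1l1 (-0.29) lower with LPS. Zbtb46 (35 to 66 counts per library) and Col1a1 (70, 3 and 49 counts in control, 40, 3 and 1 in LPS libraries) were tested and not called. Of the 20 untested markers, 6 were at 0 in all 6 libraries, among them the defining markers Ly6g, Cd3e and Ncr1. Cdh5 had 5, 2 and 5 counts in control and 10, 13 and 9 counts in LPS libraries. Pecam1 had 3, 1 and 3 counts in control and 3, 6 and 4 counts in LPS libraries. In CPM, both were higher in every LPS library than in any control library, and the groups overlapped for the other untested markers. The summed level of the 26 markers was 73.4 to 84.0 CPM in control and 77.9 to 85.6 CPM in LPS libraries. The part of these markers in the results was not tested.

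The CD300 genes lie in 1 cluster on chromosome 11, whose 11 genes include these 4 members. Cd300a (ENSMUSG00000034652) is at chr11:114890041-114904654 on the plus strand of GRCm38, and Cd300lb (ENSMUSG00000063193, chr11:114922781-114934386), Cd300ld (ENSMUSG00000034641, chr11:114982274-114989922) and Cd300lf (ENSMUSG00000047798, chr11:115116214-115133992) are on the minus strand. The bases before their start sites in RefSeq (GRCm38.p6) are printed here for these 4 neighbours because they share a cluster and differ in their response. Each sequence runs 5′ to 3′ on the strand of its gene, begins 250 bases before the RefSeq start, and ends before the first base of the gene in the count table. Capitals mark matches to the motifs searched.
Cd300lf, chr11:115133993-115134242, minus strand: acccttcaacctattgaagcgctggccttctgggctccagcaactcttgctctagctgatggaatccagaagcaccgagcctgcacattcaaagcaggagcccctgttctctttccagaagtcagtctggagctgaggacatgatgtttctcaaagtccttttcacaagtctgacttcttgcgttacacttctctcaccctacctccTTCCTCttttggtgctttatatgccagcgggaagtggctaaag
Cd300a, chr11:114889791-114890040, plus strand: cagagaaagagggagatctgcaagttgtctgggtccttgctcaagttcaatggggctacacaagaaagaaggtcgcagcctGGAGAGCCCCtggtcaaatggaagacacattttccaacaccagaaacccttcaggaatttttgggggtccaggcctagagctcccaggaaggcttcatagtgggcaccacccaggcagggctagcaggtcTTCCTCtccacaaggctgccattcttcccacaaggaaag
Cd300lb, chr11:114934387-114934621, minus strand: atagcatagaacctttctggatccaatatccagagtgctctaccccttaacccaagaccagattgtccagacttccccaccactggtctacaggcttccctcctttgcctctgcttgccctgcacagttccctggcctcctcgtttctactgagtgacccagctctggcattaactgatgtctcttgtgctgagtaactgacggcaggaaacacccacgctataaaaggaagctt
Cd300ld, chr11:114989923-114990136, minus strand: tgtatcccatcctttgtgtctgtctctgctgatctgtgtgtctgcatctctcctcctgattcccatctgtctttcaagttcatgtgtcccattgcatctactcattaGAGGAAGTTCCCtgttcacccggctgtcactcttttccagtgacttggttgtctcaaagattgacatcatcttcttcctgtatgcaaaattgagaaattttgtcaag

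Among motifs of factors that act in LPS-treated macrophages, 5 were searched on both strands of the 250 bases before the start: the PU.1 core GAGGAA, the AP-1 motif TGANTCA, the GAS motif TTCNNNGAA of STAT proteins, the ISRE core GAAANNGAAA of interferon regulatory factors, and the kappa B motif of NF-kappa B. Cd300lf, the member with the largest log2FC, held the PU.1 core alone, 43 to 38 bases before its start. Cd300a held the PU.1 core 39 to 34 bases and a kappa B match 169 to 160 bases before its start. Cd300ld, which did not pass the test, held a kappa B match at 141 to 132 bases that overlaps a PU.1 core at 143 to 138 bases. Cd300lb held none of the motifs. Among 32851 promoter windows of the same length in the RefSeq table, the PU.1 core was found in 23.3%, the kappa B motif in 7.25%, GAS in 7.02%, AP-1 in 6.75% and the ISRE core in 2.98%. Promoter windows were matched for 7 of the 10 members. Lilrb4a, Siglec1 and Sirpa had no entry, and Pirb, Cd33 and Siglece held the PU.1 core alone of these motifs. The Cd33 window (chr7:43533172-43533421, minus strand) precedes a RefSeq start that lies within the gene as counted (chr7:43524216-43544428).

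Cd300lf encodes an inhibitory receptor with ITIMs that binds phosphatidylserine and other lipids and serves murine norovirus as its entry receptor. In control libraries 1 to 3 it stood at 23.2, 22.5 and 19.0 CPM and in LPS libraries 1 to 3 at 65.3, 67.3 and 68.9 CPM. The lowest LPS library lay far above the highest control library. The mean went from 21.6 ± 2.25 to 67.2 ± 1.82 CPM (SD, n = 3), a log2FC of 1.64 (SE 0.075, adjusted p = 2.2e-10), and leaving out any 1 library gave 1.55 to 1.68. A test against the threshold of 1.5 itself (edgeR's glmTreat) did not call it, with an adjusted p of 0.64. Cd300lf lies within Rab37 on the opposite strand, but no exon base is shared, and Rab37 had 2 to 3 counts in control and 8 to 15 in LPS libraries.

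Cd300a, an inhibitory receptor with ITIMs for phosphatidylserine and phosphatidylethanolamine, was at 70.2, 62.5 and 67.2 CPM in control and at 85.2, 79.8 and 79.7 CPM in LPS libraries. All LPS libraries were above all control libraries, by a margin much narrower than that of Cd300lf. Its log2FC was 0.29 (SE 0.055, adjusted p = 7.8e-04), an increase of 22.5%, and leaving out any 1 library gave 0.24 to 0.32.

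Cd300lb encodes an activating receptor that pairs with Tyrobp. It was at 97.7, 87.7 and 92.9 CPM in control and 95.2, 89.2 and 92.3 CPM in LPS libraries, with the LPS range inside the control range. The log2FC was -0.0085 (SE 0.051, adjusted p = 0.92). Cd300ld, an activating receptor that pairs with Fcer1g, was at 27.5, 31.3 and 30.4 CPM in control and 30.8, 28.9 and 31.4 CPM in LPS libraries, and these ranges overlapped as well. Its log2FC was 0.03 (SE 0.077, adjusted p = 0.80). Leaving out single libraries moved the log2FC of Cd300lb between -0.055 and 0.019 and that of Cd300ld between -0.032 and 0.066.

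Per kilobase of exon, the 11 genes of the cluster summed to 65.0 ± 2.79 CPM in control and 77.0 ± 2.02 CPM in LPS libraries. Cd300lb held the largest share of this sum in both groups, 48.9 ± 0.58% in control and 41.0 ± 0.261% in LPS libraries. The share of Cd300lf went from 5.70 to 7.03% in control libraries to 16.0 to 17.4% in LPS libraries, whereas Cd300a held 21.6 ± 0.383% and then 22.3 ± 0.461%. Cd300ld held 17.3 ± 1.85% in control and 14.9 ± 0.445% in LPS libraries. These shares of 1 sum are tied to each other and were given no test. In raw counts, not scaled by length, the ratio of Cd300lf to Cd300a was 0.283 to 0.361 in control and 0.766 to 0.864 in LPS libraries, 2 ranges that do not overlap.

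**Figure D2:**
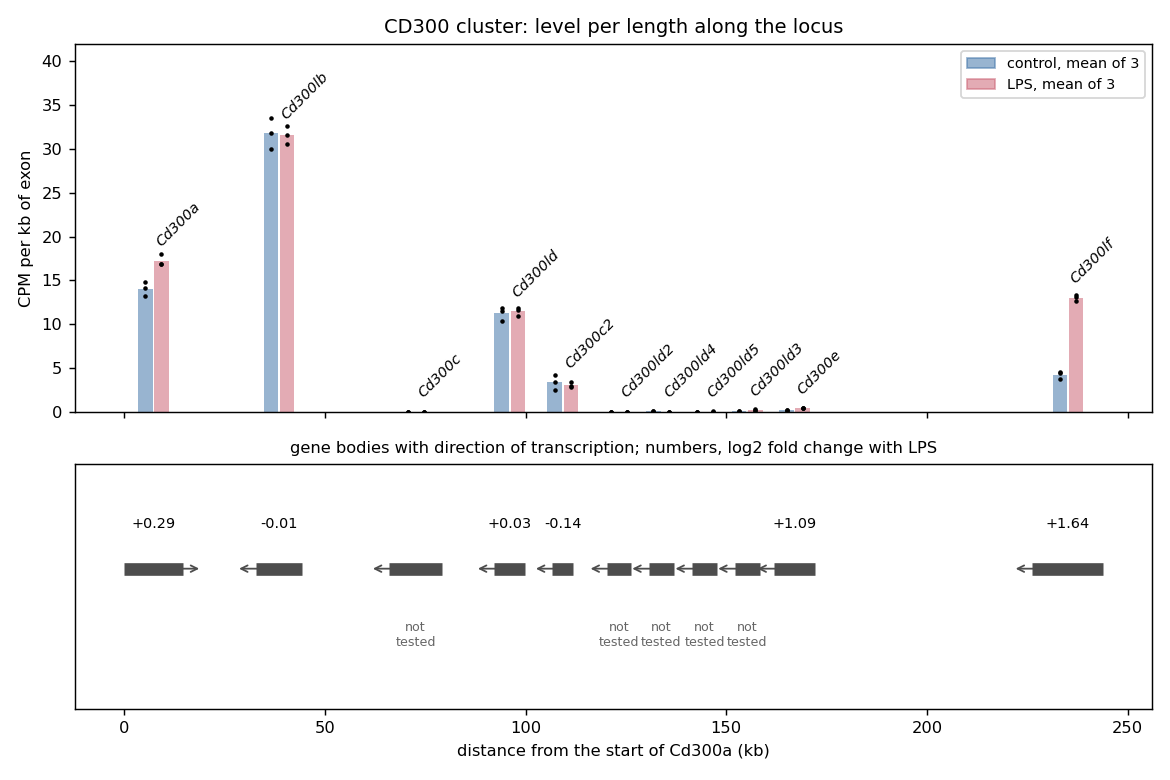
Upper panel, mean CPM per kilobase of exon (bars) and each library (dots) for the 11 genes of the CD300 cluster, at their distance in kilobases from the start of Cd300a; lower panel, gene bodies with the direction of transcription and the log2FC of the tested genes. Cd300lf, at the far end of the cluster, rose from 4.19 to 13.0 CPM per kilobase, and the genes between Cd300ld and Cd300lf other than Cd300c2 were near 0.

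The remaining genes of the cluster had few or no reads. Cd300c2 was at 4.32 ± 1.16 CPM in control and 3.91 ± 0.398 CPM in LPS libraries (log2FC -0.14, SE 0.21, adjusted p = 0.66). Cd300e, an activating receptor of monocytes, had 9, 8 and 5 counts in control and 15, 15 and 13 counts in LPS libraries, and its log2FC of 1.09 did not pass the test (SE 0.42, adjusted p = 0.061) although the groups did not overlap. Cd300c, Cd300ld2, Cd300ld3, Cd300ld4 and Cd300ld5 had 0 to 4 counts per library and were not tested. Cd300lg, a relative on chromosome 11 outside the cluster that is known from endothelium, fell from 13.3 ± 1.33 to 8.52 ± 1.17 CPM (log2FC -0.64, SE 0.13, adjusted p = 0.0014).

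Lilrb4a (ENSMUSG00000112148, chr10:51490956-51496611, plus strand) encodes the inhibitory receptor gp49B, which carries ITIMs and binds integrins, and it was the tested member with the widest spread between replicates. It was at 12.4, 25.1 and 21.0 CPM in control libraries and 17.8, 40.6 and 47.8 CPM in LPS libraries. Replicate 1 was the lowest in both groups, and LPS library 1 lay below control libraries 2 and 3, so the groups overlapped. The log2FC was 0.86 (SE 0.28, adjusted p = 0.027). The mean coefficient of variation within groups was 38.7%, above that of 96.7% of the tested genes. DESeq2 did not call it (adjusted p = 0.23), nor did robust dispersion estimation (0.28), nor 4 of the 6 fits that left out 1 library: without control library 1 (log2FC 0.61, adjusted p = 0.089), control library 3 (0.91, 0.064), LPS library 2 (0.75, 0.12) or LPS library 3 (0.58, 0.17). Other fits kept the call: with a replicate block the log2FC was 0.83 (SE 0.11, adjusted p = 2.3e-05), and with replicate 1 of both groups left out 0.93 (SE 0.10, adjusted p = 1.4e-06). Without the filter on low counts the log2FC was 0.85 (SE 0.090, adjusted p = 1.2e-19). With robust dispersion on the same unfiltered counts the SE was 0.50 and the call was lost (adjusted p = 0.43). The small SE without the filter thus depended on the dispersion estimate and adds no weight to the call.

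The neighbouring gene Lilr4b (ENSMUSG00000112023, chr10:51480632-51486703, plus strand) encodes gp49A, a near-copy of gp49B without ITIMs, and per kilobase of exon it held 91.3 ± 2.14% of the summed level of the pair in control and 91.0 ± 3.47% in LPS libraries. The counts of Lilr4b were 3275, 3941 and 3967 in control and 5605, 5761 and 6506 in LPS libraries, with all LPS libraries above all control libraries. The log2FC of Lilr4b was 0.81 (SE 0.060, adjusted p = 6.2e-08). Lilrb4a counts were 0.065, 0.113 and 0.0983 of those of Lilr4b in control libraries 1 to 3 and 0.0501, 0.116 and 0.121 in LPS libraries 1 to 3. This ratio was lowest in replicate 1 of both groups and its ranges overlapped between groups, so replicate 1 was low in Lilrb4a also relative to its neighbour. Counts of both genes added together gave a log2FC of 0.82 (SE 0.072, adjusted p = 3.8e-07).

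**Figure D3:**
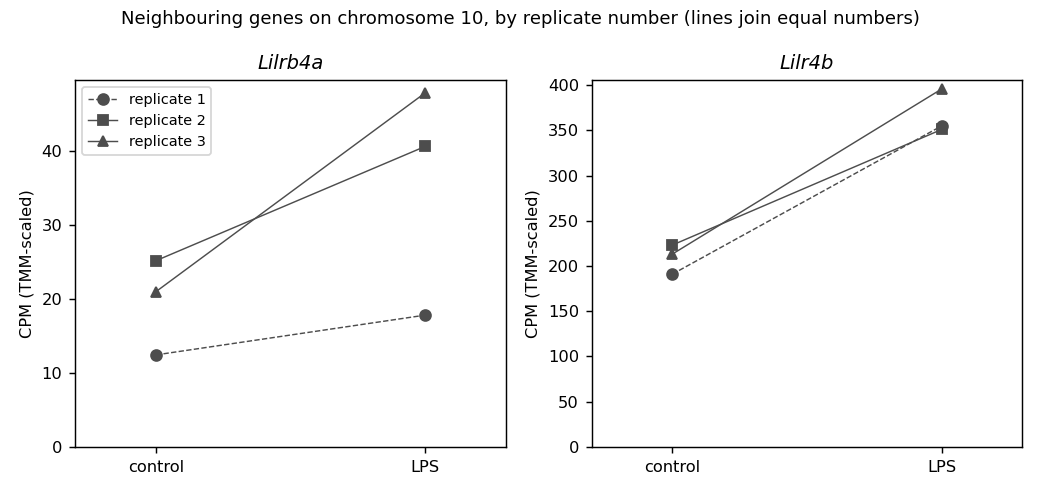
CPM (y axes, linear and from 0) of Lilrb4a and Lilr4b in control and LPS libraries, with lines joining libraries of equal replicate number (replicate 1 dashed). Replicate 1 is lowest for Lilrb4a in both groups, at 12.4 and 17.8 CPM, whereas all 3 lines of Lilr4b run close together.

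The counts of Lilrb4a are uncertain for a further reason that the annotation shows. In GENCODE M21, 35.3% of its exon bases are also exon of Gm49339, a gene on the same strand that overlaps exons of both Lilrb4a and Lilr4b, and 2.51% are exon of the antisense gene Gm40645. Gm49339 itself had 2 to 11 counts per library. Of all stretches of 100 bases in the transcripts of Lilrb4a, 35.2% also occur in other genes, 9.67% in Lilr4b. For stretches of 50 bases these shares were 47.2% and 26.1%, and the read length is not given in the sources used here. Reads could therefore be divided differently between these genes by another counting rule. How reads shared by several genes were treated, and whether strand was used, is not given in the sources used here. At 100 bases the share found in other genes was 20.8% for Pirb, mainly in Gm14548 and Pira2, and 1.37% for Cd300ld. It was under 1% for the other 7 members: 0.849% for Cd300a, 0.644% for Cd300lf, 0.0852% for Siglec1 and 0 for Cd300lb, Cd33, Siglece and Sirpa. At 50 bases it was 34% for Pirb, 3.89% for Cd300ld, 3.45% for Cd300a, 2.44% for Cd300lf, 1.33% for Siglec1 and 0.458% for Cd33. Cd300lb, Siglece and Sirpa stayed at 0.

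Pirb (ENSMUSG00000058818, chr7:3711409-3720391, minus strand), an inhibitory receptor for MHC class I and for the Nogo protein encoded by Rtn4, was among the lower members. It was at 7.52, 6.06 and 5.91 CPM in control and 6.90, 6.46 and 6.14 CPM in LPS libraries, and the LPS range lay inside the control range. The log2FC was 0.0021 (SE 0.15, adjusted p = 0.99), and single libraries left out moved it between -0.069 and 0.11. Its activating counterpart Pira2 was at 1.52 ± 0.454 CPM in control and 1.15 ± 0.444 CPM in LPS libraries (log2FC -0.40, SE 0.36, adjusted p = 0.43).

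Sirpa (ENSMUSG00000037902, chr2:129592835-129632228, plus strand) was the most abundant member and the one down-regulated member. It stood at 545, 558 and 551 CPM in control libraries and at 394, 406 and 402 CPM in LPS libraries, with a wide gap between groups and little spread within them. The mean went from 551 ± 6.59 to 401 ± 6.16 CPM (SD, n = 3), a log2FC of -0.46 (SE 0.036, adjusted p = 1.1e-07), and leaving out any 1 library gave -0.48 to -0.45. Its ligand gene Cd47, measured in the same cells, went the other way, from 122 ± 2.01 to 231 ± 3.37 CPM (log2FC 0.92, SE 0.042, adjusted p = 2.5e-10). In raw counts, not scaled by length, those of Sirpa were 4.43 to 4.66 times those of Cd47 in control libraries and 1.70 to 1.79 times in LPS libraries. The activating relatives Sirpb1a, Sirpb1b and Sirpb1c, which pair with Tyrobp, were each at 2.01 CPM or less on average and did not pass the test (log2FC -0.67, -0.42 and -0.36, adjusted p = 0.19, 0.48 and 0.34). Per kilobase, Sirpa made up 98.8% of the summed level of these 4 genes in each group.

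Siglec1 (ENSMUSG00000027322, chr2:131069220-131086765, minus strand) encodes sialoadhesin, a long adhesion receptor of macrophages that lacks ITIMs. It was at 10.3, 10.5 and 9.57 CPM in control and 12.8, 14.7 and 13.6 CPM in LPS libraries. All LPS libraries were above all control libraries, and the log2FC was 0.44 (SE 0.11, adjusted p = 0.0058), an increase of 35.4%. Leaving out any 1 library kept the call, with an adjusted p of at most 0.033.

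Cd33 (ENSMUSG00000004609, chr7:43524216-43544428, minus strand), which gives its name to the CD33-related Siglecs, was at 24.1, 24.5 and 24.5 CPM in control and 22.9, 23.3 and 26.2 CPM in LPS libraries, which lay on both sides of the control libraries (log2FC -0.01, SE 0.082, adjusted p = 0.93). Single libraries left out moved its log2FC between -0.075 and 0.026. Siglece (ENSMUSG00000030474, chr7:43651070-43660161, minus strand), an inhibitory Siglec with ITIMs, had 0, 3 and 0 counts in control and 1 count in each LPS library. At this depth neither its presence nor a difference could be measured, and no fold is given. Of the other Siglecs, Siglec15, which pairs with Tyrobp, was tested and not called (4.58 ± 0.646 and 3.97 ± 0.445 CPM, log2FC -0.20, SE 0.18, adjusted p = 0.44), and Siglecf, Siglecg, Siglech, Cd22 and Mag had 0 to 9 counts per library.

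Ordered by level per kilobase, the members spanned from Sirpa at 112 ± 1.34 CPM per kilobase in control cells down to Siglece near 0. In control libraries Cd300lb (31.8 ± 1.73), Cd300a (14.1 ± 0.819) and Cd300ld (11.2 ± 0.736) followed Sirpa, without overlap of libraries between any of these neighbours. Cd300lf (4.19 ± 0.437) overlapped Lilrb4a (3.73 ± 1.24), Lilrb4a overlapped Cd33 (3.13 ± 0.0275), and Pirb (1.45 ± 0.199) overlapped Siglec1 (1.42 ± 0.0712). With LPS the order of level per kilobase was Sirpa (81.6 ± 1.26), Cd300lb (31.6 ± 1.03), Cd300a (17.2 ± 0.669), Cd300lf (13.0 ± 0.353), Cd300ld (11.5 ± 0.498), Lilrb4a (6.77 ± 3.00), Cd33 (3.11 ± 0.234), Siglec1 (1.92 ± 0.137), Pirb (1.45 ± 0.0853) and Siglece, and no neighbours overlapped. Cd300lf was thus below Cd300ld in all control libraries and above it in all LPS libraries. Siglec1 and Pirb overlapped in control, and Siglec1 lay above Pirb in all LPS libraries.

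Of 33 related receptor genes listed, 25 were in the table and 11 were tested. Lilr4b was the 1 up-regulated and Cd300lg the 1 down-regulated gene among them, where 18.7% of all genes tested were higher and 15.7% lower, and the median log2FC of the 11 was -0.20. Besides those described, Lair1, an inhibitory collagen receptor, was not called, at 54.4 ± 2.19 CPM in control and 50.5 ± 5.37 CPM in LPS libraries (log2FC -0.11, SE 0.073, adjusted p = 0.28), and Lilra6 was at 1.45 ± 0.399 and 1.86 ± 0.475 CPM (log2FC 0.36, SE 0.31, adjusted p = 0.42).

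**Figure D4:**
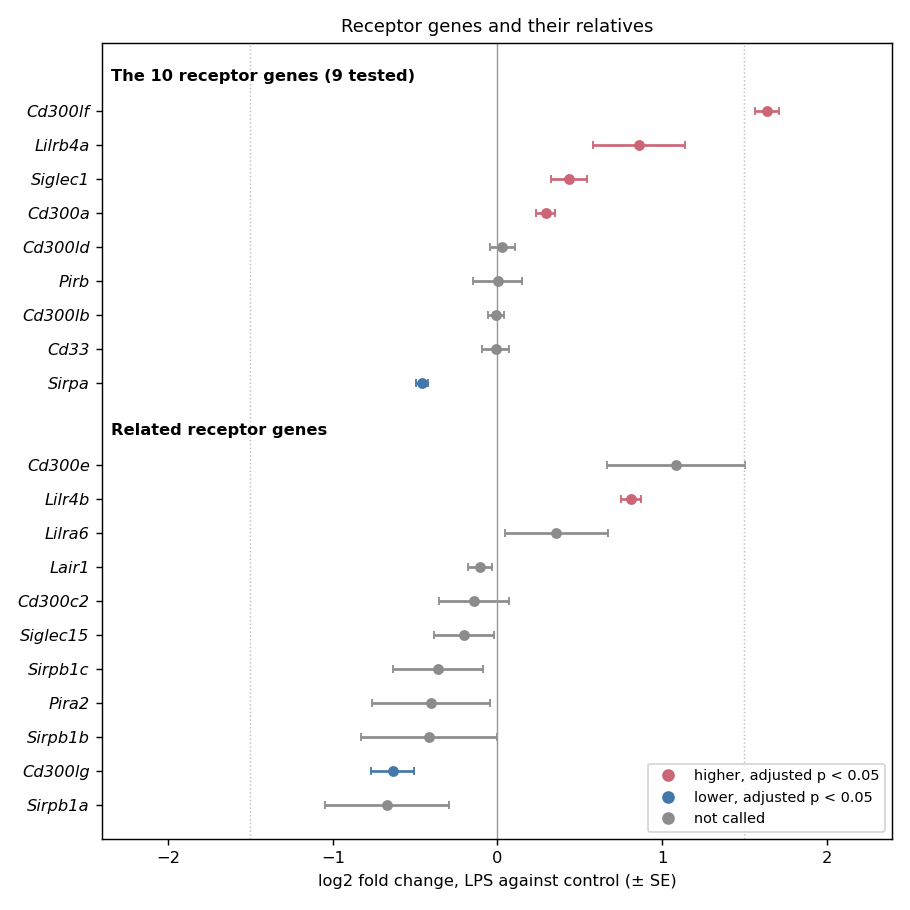
Log2FC ± SE (x axis, LPS against control) of the 9 tested receptor genes and the 11 tested relatives; red, up-regulated, blue, down-regulated, grey, not called at an adjusted p under 0.05; dotted lines at -1.5 and 1.5. Cd300lf at 1.64 is the one point beyond a dotted line.

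Genes that carry the signals of these receptors were measured from a list of 11, of which 10 were tested, 3 rose and 3 fell, where 18.7% of all genes tested rose and 15.7% fell, with a median log2FC of -0.02. The adaptors of the activating members were not called: Tyrobp was at 213 ± 6.46 CPM in control and 198 ± 9.93 CPM in LPS libraries (log2FC -0.11, adjusted p = 0.10), and Fcer1g at 115 ± 2.53 and 114 ± 2.18 CPM (log2FC -0.0041, adjusted p = 0.95). Ptpn6, a phosphatase that ITIM receptors recruit, fell from 406 ± 6.56 to 277 ± 7.92 CPM (log2FC -0.55, SE 0.040, adjusted p = 5.2e-08), and the lipid phosphatase gene Inpp5d (SHIP1) fell from 198 ± 12 to 136 ± 7.68 CPM (log2FC -0.55, SE 0.056, adjusted p = 2.1e-06). Ptpn11, the other tyrosine phosphatase of this kind, had a log2FC of 0.0040 and was not called (adjusted p = 0.95). The kinase gene Syk, which acts downstream of Tyrobp and Fcer1g, rose from 157 ± 4.13 to 336 ± 8.18 CPM (log2FC 1.10, SE 0.043, adjusted p = 3.7e-11).

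Genes of ligands, from a list of 10 with 9 tested, were up-regulated in 5 cases and down-regulated in 2, where 18.7% of all genes tested were higher and 15.7% lower, with a median log2FC of 0.14. Beside Cd47, the MHC class I genes H2-D1 (514 ± 21.2 to 886 ± 4.03 CPM, log2FC 0.78, adjusted p = 3.3e-10) and H2-K1 (217 ± 8.31 to 338 ± 5.36 CPM, log2FC 0.64, adjusted p = 2.0e-08), whose products Pirb binds, were higher with LPS. Spn, which encodes the Siglec1 ligand CD43, was at 137, 106 and 131 counts in control and 77, 99 and 67 counts in LPS libraries, a call at the edge of the threshold (log2FC -0.49, SE 0.18, adjusted p = 0.045). MHC class I genes are a multigene family with near-identical stretches, so the division of reads between H2-D1, H2-K1 and their relatives is uncertain.

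Enzymes that make, attach or remove sialic acid, the sugar that Siglecs bind, were listed as 32 genes, of which 20 were tested, 2 rose and 9 fell, where 18.7% of all genes tested rose and 15.7% fell, with a median log2FC of -0.13. St3gal1, which caps O-linked glycans with sialic acid, rose from 58.7 ± 2.62 to 163 ± 7.78 CPM (log2FC 1.48, SE 0.052, adjusted p = 1.1e-11). Cmah, which converts the sialic acid Neu5Ac to Neu5Gc, fell from 6.33 ± 1.48 to 2.36 ± 0.118 CPM (log2FC -1.42, SE 0.21, adjusted p = 7.9e-05). St6gal1, which caps N-linked glycans, fell from 16.4 ± 0.191 to 7.22 ± 1.17 CPM (log2FC -1.18, SE 0.12, adjusted p = 2.6e-06), and St8sia4, a polysialyltransferase, from 21.5 ± 1.23 to 10.5 ± 0.397 CPM (log2FC -1.03, SE 0.096, adjusted p = 7.7e-07). These 4 genes were named for their large changes, and in each the control and LPS libraries did not overlap. The same held for 11 of the 20 tested enzymes and for 45.3% of all genes tested.

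**Figure D5:**
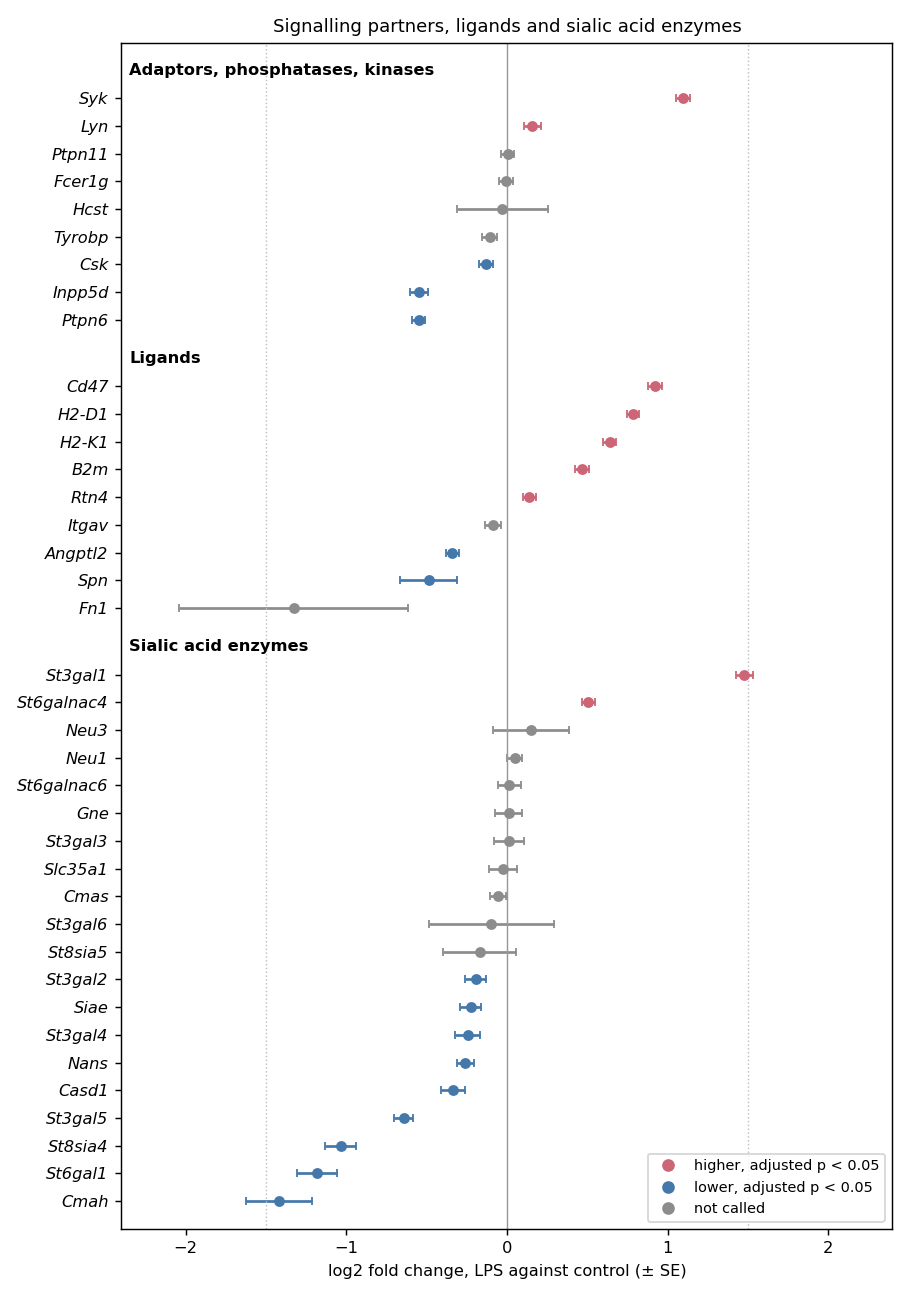
Log2FC ± SE (x axis, LPS against control) of tested genes among signalling partners, ligands and sialic acid enzymes, coloured as called up-regulated (red), down-regulated (blue) or not called (grey) at an adjusted p under 0.05, with dotted lines at -1.5 and 1.5. St3gal1 at 1.48 lies highest of the genes drawn, and 9 of the 20 sialic acid enzymes are blue.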

How the data were processed

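RNA of 6 N9 libraries (3 control, 3 LPS, grouped by the labels) was extracted with the RNeasy Plus Mini Kit and sequenced by Novogene. The authors deposited whole-number read counts per gene, without normalization. The submitters' processing notes name featureCounts 1.5.0-p3 and mm10, and the aligner, the annotation and the use of strand are not given in the sources used here. Another deposited table, with the authors' own fold changes and p-values, was not used, nor were 18 further columns that hold values of single samples and 2 that hold means of a group.

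LPS was compared with control by edgeR 4.0.16 (R 4.3.3) with TMM normalization, filterByExpr, the quasi-likelihood test, a prior count of 0.125 and no replicate term, tested on simulated data. Benjamini-Hochberg adjustment covered all 12296 genes tested of 54532, and every tested member passed the filter with counts in both groups. An exact permutation test of 3 against 3 libraries cannot go below p = 0.1. Standard errors (SE) were derived from the log2FC and its F statistic. Level per kilobase used the gene lengths of the deposited table. A group with no library above 3 counts is treated as not measurable. Molecular identifiers are not named in the sources used here, so these floors cover counting error only. No pair of libraries agreed within sampling noise. Members' coordinates and exons were checked in GENCODE M21 (GRCm38).

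All 10 members and, of their relatives, every tested gene were named, and of the other lists mainly the called genes with the largest change, up to 4. Values of some listed genes are not reported here, in the text or the figures. The members and lists were chosen with earlier results of these data known. Alternatives were RLE size factors, DESeq2 1.42.0, other filters, robust dispersion, glmTreat, a replicate block, protein-coding genes alone, a prior count of 2, and leaving out libraries.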

Additional observations from a re-analysis of the deposited data

How the results depend on the processing

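Cd300lf, Cd300a, Sirpa and Lilr4b kept their direction and their call under every alternative except glmTreat against an absolute log2FC of 1.5, which called 0 members, relatives, signalling partners, ligands and sialic acid enzymes in either direction, with 181 genes higher and 2 lower over all genes. Counts of members, relatives, partners and enzymes called in each direction were within 1.5 times those reported under all other alternatives, except for members past the DEG threshold as given below. The ligand genes lower with LPS numbered 1 with DESeq2, 1 to 3 when single libraries were left out and 1 with control replicates 2 and 3 left out. That last alternative, chosen after seeing the data, like leaving out replicate 1 of both groups and adding Lilrb4a to Lilr4b, gave 3 members higher, 2 members past the DEG threshold (Cd300lf and Lilrb4a), and, over all 12940 genes tested in that fit, 1681 higher, 1151 lower and 334 DEG, against 2294, 1927 and 326 of 12296. Lilrb4a was not called either without a filter and with robust dispersion (adjusted p = 0.43). The log2FC of members that were not called crossed 0 in several fits. Cd300ld was at -0.032 to 0.066 and Cd300lb at -0.055 to 0.019 with single libraries left out, and Cd300ld at -0.040 with replicate 1 of both groups left out. Pirb was at -0.0042 with RLE size factors, -0.0053 with DESeq2, -0.0052 without a filter (with or without robust dispersion), -0.069 to 0.11 with single libraries left out, and -0.21 with control replicates 2 and 3 left out. Cd33 was at -0.075 to 0.026 with single libraries left out, 0.0046 with control replicates 2 and 3 left out and 0.010 with replicate 1 of both groups left out. The cause of these shifts was not tested. With a replicate block, 4 members were higher and 1 lower, and 2454 genes were higher and 2020 lower over all genes, against 2294 and 1927. Deviations of same-numbered libraries correlated at 0.135, 0.0504 and 0.0118, and not every library correlated best with its own number, so the block was not used. The depth sets a floor of 0.161 to 0.190 CPM, and every library of Siglece was at or under it.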
